A study of Caenorhabditis elegans with 16 samples.

Results

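The comparison described here is that of baf-1(G12T) with wild type in the hypodermis, the epidermis of the nematode Caenorhabditis elegans. It rests on 8 of the 16 samples of the series and on 19974 named genes, every one of which was kept. RNA polymerase DamID (RAPID) was used to read transcription in 1 tissue of whole animals. A bacterial DNA adenine methyltransferase (Dam) fused to RPB-6, a shared subunit of the RNA polymerases, methylates GATC sites that the polymerase passes, and GFP fused to Dam gives the background of accessible chromatin. The deposited score of a gene is the log2 ratio of Dam::RPB-6 to GFP::Dam, and a false discovery rate (FDR) comes with it. A gene was called transcribed where this FDR was under 0.05. The change of a gene is its baf-1(G12T) score minus its wild-type score, so that a change of 1 is a 2-fold difference in the ratio.

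The scores come from 4 groups of 2 samples each. Wild-type Dam::RPB-6 animals (BN1414) carried the bqSi1411 transgene, dam::rpb-6 behind the hsp16.41 promoter and an FRT-flanked mCh::his-58 cassette, and bqSi548[dpy-7p::FLP]. The mutant Dam::RPB-6 animals (BN1416) carried both transgenes and baf-1(bq19[G12T]). The GFP::Dam animals carried bqSi447, with gfp::dam in the place of dam::rpb-6, and bqSi548, without (BN561) or with (BN1048) the baf-1 allele. All were L4 larvae, from about 4000 animals a strain grown for 48 h at 20 °C on bacteria that lack Dam. FLP under the dpy-7 promoter removes the cassette, so Dam activity depends on where and when that promoter is active. The tables hold 1 score per gene and genotype for both replicates together. From these tables no difference could be set against the spread between replicates, no test was made, and each value is a description of these pooled libraries.

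BAF-1 is the worm barrier-to-autointegration factor, a small DNA-binding protein that bridges chromatin to the inner nuclear membrane. It binds lamin and LEM-domain proteins such as emerin, and it is needed to rebuild the nuclear envelope after each cell division. A substitution at the matching residue of human BAF causes Néstor-Guillermo progeria syndrome. The hypodermis is a large syncytium that secretes the collagen cuticle, renews it at each molt, and makes antimicrobial peptides when the animal is wounded or infected by fungi.

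The mutated codon and the sites that the method reads are shown first, since the allele and the GATC sites define what was measured. The first 60 coding bases of baf-1 (RefSeq WBcel235, the same assembly as ce11, chromosome III, 9467469 to 9467528, plus strand) are given with codon 12, which encodes glycine in the reference, in capitals.
baf-1: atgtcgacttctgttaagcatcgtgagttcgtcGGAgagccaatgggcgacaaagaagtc
Dam can mark a gene only at the letters GATC. The number of GATC fragments deposited for a gene equalled the GATC sites inside its annotated span plus 1 for 19162 of 19406 genes placed in the Ensembl annotation (98.7%). The median gene had 284 bases per fragment. The copper chaperone gene cuc-1, shown because its change was among the largest, has 2 fragments and a single GATC site, in its last coding exon. The coding bases around it (chromosome III, 7860608 to 7860651, minus strand) are given with the site in capitals.
cuc-1: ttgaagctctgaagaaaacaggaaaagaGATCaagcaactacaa
The antimicrobial peptide gene nlp-29 also has a single site, outside its coding exons (chromosome V, 3984551 to 3984610, plus strand).
nlp-29: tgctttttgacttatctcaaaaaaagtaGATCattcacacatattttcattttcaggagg

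The mutant scores had the wider spread. The SD over all named genes was 0.228 in wild type and 0.296 in the mutant. The medians were -0.037 and -0.016, and the median change was 0.019. Across genes the scores of both genotypes correlated with Pearson's r = 0.48 and Spearman's rho = 0.45. This is a description over 19974 genes that share libraries and can share fragments, not over replicates. The wider spread sets how many genes pass a fixed difference, so each count is given for the deposited scores and after quantile normalization, which gives both columns 1 distribution.

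**Figure D1:**
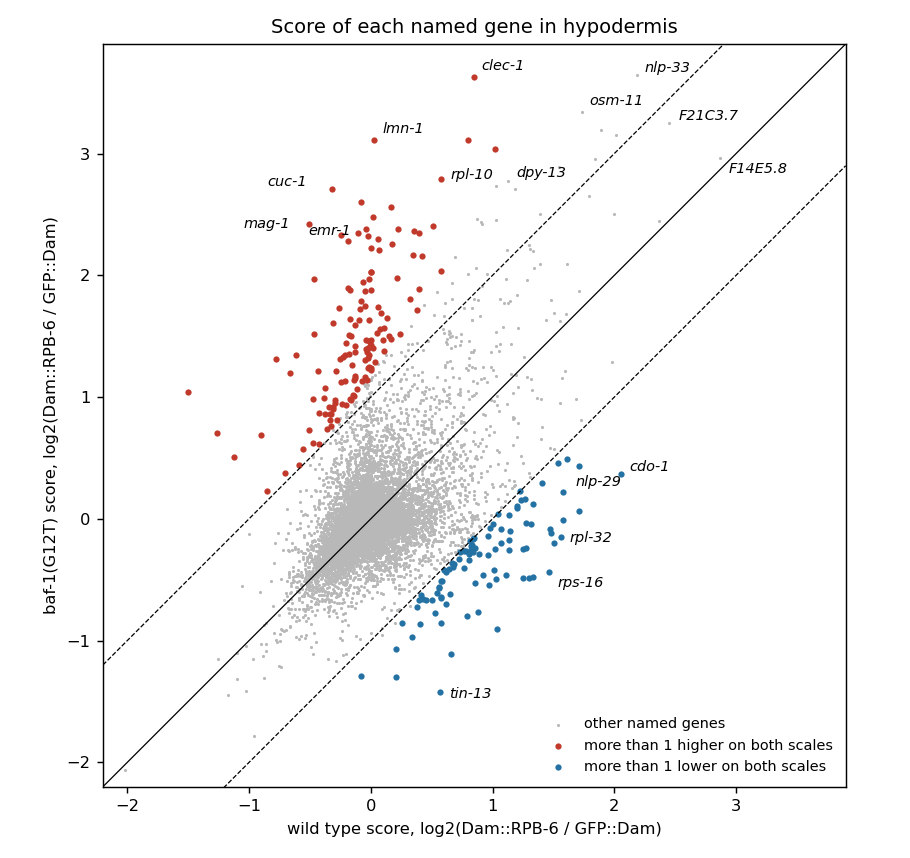
Score of each of 19974 named genes in the hypodermis of wild type (x axis) and baf-1(G12T) (y axis), both as log2(Dam::RPB-6/GFP::Dam). The solid line marks equal scores and the dashed lines a change of 1 in either direction. The 135 genes more than 1 higher on both scales (red) lie mostly at wild-type scores near or under 0, and the 94 genes more than 1 lower on both scales (blue) mostly at mutant scores near or under 0.

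Of all named genes, 212 (1.06%) were more than 1 higher in baf-1(G12T) and 97 (0.486%) were more than 1 lower. After quantile normalization the counts were 135 (0.676%) and 160 (0.801%), so that the larger group turned from the higher to the lower genes. On both scales, 135 genes were higher and 94 (0.471%) were lower, and these genes are the ones named below unless stated. A score pools all cells in which Dam was active, so fewer transcribing cells and less polymerase per cell cannot be told apart. Among the 2759 genes called transcribed in at least 1 genotype, 211 (7.65%) were higher and 91 (3.3%) lower, against 134 (4.86%) and 155 (5.62%) after quantile normalization. A family with many called members can for that reason hold more genes beyond 1 than the share over all genes.

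Genes with few GATC fragments passed the difference more often. With 4 to 7 fragments, 1.32% of 6575 genes were more than 1 higher and 0.791% were more than 1 lower. With 16 to 31 fragments these shares were 0.342% and 0.0759% of 2634 genes, and none of the 927 genes with 32 or more fragments passed in either direction. After quantile normalization the shares were 0.852% and 1.23% with 4 to 7 fragments, and 0.114% and 0.266% with 16 to 31. The SD of the change fell from 0.306 at 4 to 7 fragments to 0.154 at 32 or more. The correlation between the genotypes was r = 0.38 over genes with 1 fragment and 0.71 over genes with 32 or more. Calls went the other way, and were more frequent in genes with many fragments. In wild type 7.41% of genes with 4 to 7 fragments and 20.3% of those with 32 or more were called. In the mutant these shares were 5.86% and 14.6%.

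**Figure D2:**
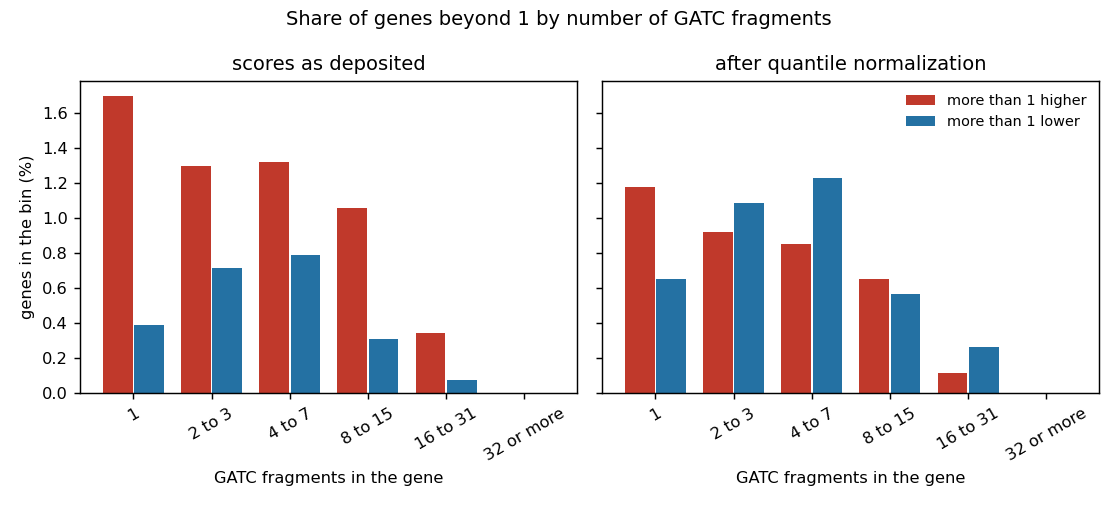
Share of genes (%) more than 1 higher (red) or more than 1 lower (blue) in baf-1(G12T), by number of GATC fragments, for the deposited scores (left) and after quantile normalization (right). Bars start at 0, there are no replicates and hence no error bars. The share of higher genes was 1.7% with 1 fragment and 0.342% with 16 to 31, and both bars are absent at 32 or more.

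Fewer genes were called transcribed in baf-1(G12T), 1504 (7.53%) against 1960 (9.81%) in wild type, and 705 genes were called in both. The shared genes were 36% of the wild-type calls and 46.9% of the mutant calls. The 1255 genes called in wild type alone had a median score of 0.33 there and -0.021 in the mutant. The 799 genes called in the mutant alone had a median of -0.039 in wild type and 0.50 in the mutant. These medians follow from how the genes were picked and support nothing about direction. The 705 shared genes had medians of 0.46 in wild type and 0.60 in the mutant, with a median change of 0.15 as deposited and 0.054 after quantile normalization. Of them, 47 (6.67%) were more than 1 higher and 3 (0.426%) more than 1 lower as deposited. After quantile normalization these counts were 13 (1.84%) and 17 (2.41%).

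Markers of the labelled tissue were called more often than those of other tissues in these libraries. Of 16 hypodermal markers, 11 (68.8%) were called in wild type and 7 (43.8%) in the mutant, against 9.81% and 7.53% of all named genes. None of 12 intestinal, 8 body wall muscle, 5 pharyngeal and 8 germ line markers was called in either genotype. The highest of their scores was 0.15, that of the muscle myosin gene unc-54 in the mutant. Of 10 neuronal markers, snb-1 (synaptobrevin) was called in wild type, with a score of 0.74 against 0.29 in the mutant. The neuronal marker ric-19 was called in the mutant, with -0.21 in wild type and 1.13 in the mutant. The part of other cells in the results was not tested beyond these values.

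Of 8 genes of the lamina and of BAF-1 itself, 7 scored higher in the mutant, 2 of them by more than 1. None of the 8 genes on this list was called in wild type and 5 (62.5%) were called in baf-1(G12T). Over all named genes these shares were 9.81% and 7.53%. The wild-type scores of the list lay between -0.28 and 0.15. The lamin gene lmn-1, the only lamin gene of the worm (ce11 chromosome I, 8763041 to 8765631), had 0.024 in wild type and 3.11 in the mutant. Its change of 3.08 (2.50 after quantile normalization), over 17 fragments, was the largest as deposited of all genes with at least 4 fragments. After quantile normalization mag-1 (6 fragments) had a larger change, 2.55. The emerin gene emr-1 (chromosome I, 1842445 to 1843227, 6 fragments) had -0.040 and 2.38. These 2 genes are the members beyond 1, and both lie on chromosome I.

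Of the other members, 3 were called in the mutant and were higher there by less than 1. The gene of the LEM-domain protein LEM-2 had -0.046 in wild type and 0.93 in the mutant. The mutated gene itself, baf-1 (chromosome III, 9467464 to 9468058, 4 fragments), had 0.15 and 0.72, with an FDR of 0.127 and 0.015. The vrk-1 gene, whose kinase phosphorylates BAF, had -0.12 and 0.52. The remaining 3 genes differed by under 0.1. The lem-3 gene had -0.16 and -0.076, lem-4 had 0.056 and 0.054, and cec-4, whose chromodomain protein anchors methylated histone H3 at the nuclear periphery, had -0.28 and -0.23. The median change of the list was 0.60 as deposited and 0.54 after quantile normalization, against 0.019 and 0.0014 over all named genes. The allele is a substitution, so the baf-1 score is no check of the genotype labels.

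Genes next to the lamina genes differed less or in the opposite direction. The genes next to emr-1 were also higher in the mutant, with 0.21 and 0.63 for C53H9.4 (1 fragment) and -0.26 and 0.30 for nlp-12 (2 fragments). On the left of lmn-1 lies tin-13, a small chaperone gene of mitochondrial protein import, with 0.57 in wild type and -1.43 in the mutant. As deposited this was the largest drop among genes with at least 4 fragments. After quantile normalization its change was -1.98, and cdo-1 had a larger drop, -2.28. On the right of lmn-1 lies the telomerase gene trt-1, with -0.059 and 0.089. The genes next to lem-2 had -0.09 and 0.06 (W01G7.4) and 0.01 and -0.02 (xrn-1). Next to baf-1, tag-342 had 0.64 and -0.41, and B0464.9, on the other side, had -0.14 and -0.04. At lmn-1 and at baf-1 the adjacent gene on 1 side thus differed in the opposite direction. The gene on the other side was slightly higher in the mutant at both loci.

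Other nuclear lists did not follow the lamina genes. The 6 genes of the LINC complex, which spans both nuclear membranes, had a median change of 0.044 and none beyond 1. Of 39 nuclear pore and transport genes, 7 (17.9%) were called in wild type and 4 (10.3%) in the mutant. The shares of all named genes were 9.81% and 7.53%. Among the 39 genes, npp-23 had -0.35 and 0.92, while npp-7 had 0.68 and -0.08 and the importin gene ima-3 had 0.59 and -0.07. Of 83 histone genes, with a median of 2 fragments, the linker histone gene hil-2 was beyond 1, with -0.16 and 1.26. In that list 36 genes scored higher in the mutant and 24 lower, and the rest had a change of exactly 0. A score of 0 in both genotypes was deposited for 183 of all named genes. The 14 genes of histone H3 lysine 9 methylation and its readers had a median change of -0.043, and the Argonaute gene nrde-3 had 0.45 and -0.35. The 10 dosage compensation genes had no member beyond 1, and sdc-2 had 0.02 and 0.39.

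Subunits of the polymerase that the method tracks were measured too. Of 12 RNA polymerase II subunit genes, 1 (8.33%) was called in wild type and 3 (25%) in the mutant, and none was beyond 1. The shares called of all named genes were 9.81% and 7.53%. The largest subunit gene ama-1 had -0.20 in wild type and 0.17 in the mutant over 44 fragments, and rpb-2 had -0.34 and 0.27 over 21. The endogenous rpb-6 gene, whose product is fused to Dam, had -0.14 and 0.20. The gene whose promoter drives both Dam constructs, hsp-16.41, had -0.47 and 0.11, and its partner hsp-16.2 had -0.25 and 0.24. Neither heat shock gene was called in either genotype.

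**Figure D3:**
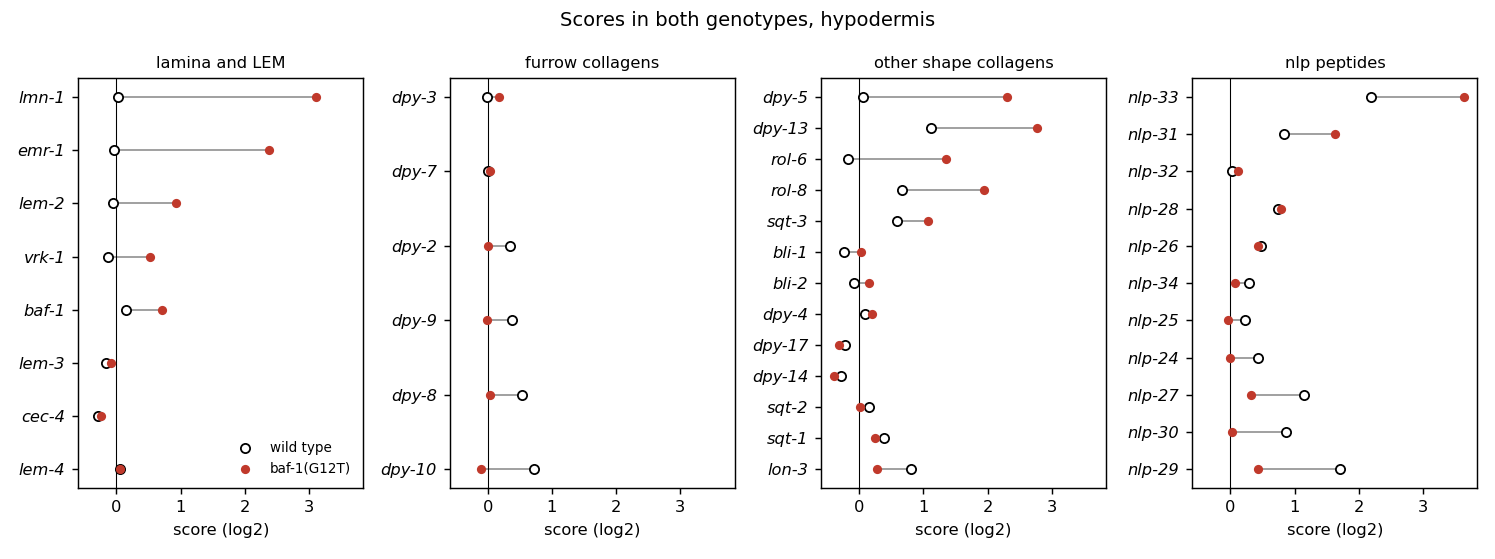
Scores (log2) in wild type (open circles) and baf-1(G12T) (red) for 8 lamina and LEM genes, 6 annular furrow collagens, 13 other body shape collagens and 11 nlp peptide genes, ordered by change in each panel. The line joins both scores of a gene. In the lamina panel lmn-1 and emr-1 reach 3.11 and 2.38, and in the furrow panel 4 genes drop to about 0.

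Cuticle collagens, the main product of the hypodermis, differed in both directions by kind. Of 175 genes, 44 (25.1%) were called in wild type and 34 (19.4%) in the mutant, against 9.81% and 7.53% of all named genes. As deposited, 12 (6.86%) were more than 1 higher and 1 (0.571%) was more than 1 lower, against 1.06% and 0.486% of all named genes. In this list 60 genes were called in at least 1 genotype, and among all genes so called the shares were 7.65% and 3.3%. Those shares have called genes alone as their base, while 6.86% and 0.571% are over all 175 collagens. They are therefore not like for like. On both scales 8 were higher and 1 lower. The median change was 0.034.

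The annular furrow collagens mostly scored lower in the mutant. Loss of any one of these 6 collagens is known to disturb the furrows and to switch on stress responses in the epidermis. Of the 6, 4 were called in wild type and 0 in the mutant, against 9.81% and 7.53% of all named genes. The gene dpy-10 had 0.73 in wild type and -0.11 in the mutant. The gene dpy-8 had 0.53 and 0.037, dpy-9 had 0.38 and -0.0030, and dpy-2 had 0.36 and -0.0016. The other members were without a call in either genotype. The gene dpy-7, whose promoter drives FLP, had 0.0058 and 0.033, and dpy-3 had -0.0037 and 0.18. The median change was -0.37 as deposited and -0.41 after quantile normalization, and no member was beyond 1.

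Other body shape collagens contained the opposite pattern. The gene dpy-5 had 0.062 in wild type and 2.30 in the mutant over 2 fragments, and rol-6 had -0.18 and 1.36 over 3. The genes dpy-13 (1.13 and 2.78) and rol-8 (0.67 and 1.94) were beyond 1 as deposited only, with 0.84 and 0.83 after quantile normalization. The collagen lon-3, which affects body length, was lower, with 0.80 and 0.28. Over these 13 genes 5 (38.5%) were called in each genotype, against 9.81% and 7.53% of all named genes. The median change of the 13 was 0.22. Among the 156 collagens named col, col-63 had 0.057 and 1.74 and col-143 had -0.010 and 1.42. The one collagen beyond 1 in the lower direction was col-90, with 1.20 and 0.11. The highest collagen score in either genotype was that of col-39, 1.89 in wild type and 3.19 in the mutant, and its change of 1.30 shrank to 0.16 after quantile normalization.

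Of 14 enzymes that fold and cross-link collagen, 9 were called in wild type and 5, all of them among the 9, in the mutant. Over all named genes the shares were 9.81% and 7.53%. The protein disulfide isomerase gene pdi-1 had 0.83 in wild type and -0.22 in the mutant. The gene pdi-2, which encodes a subunit of the collagen prolyl hydroxylase, had 1.17 and 0.82, and the thioredoxin-like dpy-11 had 0.53 and 0.01. The peroxidase gene mlt-7 and the dual oxidase gene bli-3 had 0.44 and 0.48, and 0.05 and 0.14. Of 41 cuticlin and zona pellucida genes, cutl-28 alone was beyond 1, with -0.13 and 1.17.

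Molting genes scored lower in the mutant more often than higher. Of 25, 15 (60%) were called in wild type and 9 (36%) in the mutant. Over all named genes these shares were 9.81% and 7.53%, and over genes with 16 to 31 fragments 17.3% and 12.3%. None of the 25 was beyond 1, and 17 had a lower score in the mutant and 8 a higher one. The highest change, 0.33, was that of bed-3 (-0.050 and 0.28), and the clathrin gene chc-1 had 0.23 and 0.45. The genes are long, with a median of 22 fragments, against 7 for all named genes. The largest drops were those of the protease gene nas-37 (0.08 and -0.31), mlt-10 (0.41 and 0.03), the nuclear receptor gene nhr-23 (0.19 and -0.19), which drives molting cycles, and the fibrillin-like fbn-1 (0.28 and -0.07). The best-scored members were nearly level. The apical matrix gene noah-1 had 0.99 and 0.97, and the lipoprotein receptor gene lrp-1 had 0.71 and 0.64. The median change was -0.079 as deposited and -0.137 after quantile normalization.

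Hedgehog-related genes, which the worm uses in the cuticle and in molting, were called in 24 of 84 cases in wild type and in 11 of 84 in the mutant. These are 28.6% and 13.1%, against 9.81% and 7.53% of all named genes. Ligand-like genes went from 13 (22%) to 5 (8.47%) calls of 59, and patched-related receptor genes from 11 (44%) to 6 (24%) of 25. The ground-like gene grl-10 was the only member beyond 1, with 0.32 and 1.80. In the lower direction grl-21 had 0.54 and -0.34, and grl-19 had 0.77 and 0.00. The median change over all 84 was 0.018, close to that of all named genes.

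Of 22 epidermal antimicrobial peptide genes, 10 were called in wild type and 2 in the mutant. Over all named genes the shares were 9.81% and 7.53%, and over genes with 2 to 3 fragments 3.76% and 3.11%. These short genes, with a median of 2 fragments, differed in opposite directions. The gene nlp-29, which is switched on by wounding and fungal infection, had 1.71 in wild type and 0.43 in the mutant, with a change of -1.28 (-1.82 after quantile normalization). Its neighbours in the same cluster differed in both directions, with 0.87 and 0.03 for nlp-30, 1.14 and 0.32 for nlp-27, 0.28 and 0.06 for nlp-34, 0.74 and 0.79 for nlp-28, and 0.83 and 1.63 for nlp-31. The gene nlp-33, elsewhere on chromosome V, had 2.19 in wild type and 3.64 in the mutant, the highest score of that genotype. Its change was 1.45 as deposited and 0.54 after quantile normalization. The caenacin genes cnc-10 and cnc-8 had 0.96 and 0.39, and 0.83 and 0.34.

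The 250 bases before the annotated starts of nlp-29 and nlp-33 are set side by side because these genes of 1 family differed in opposite directions. GATC is in capitals (RefSeq WBcel235, plus strand, chromosome V, 3984175 to 3984424 for nlp-29 and 11147096 to 11147345 for nlp-33).
nlp-29: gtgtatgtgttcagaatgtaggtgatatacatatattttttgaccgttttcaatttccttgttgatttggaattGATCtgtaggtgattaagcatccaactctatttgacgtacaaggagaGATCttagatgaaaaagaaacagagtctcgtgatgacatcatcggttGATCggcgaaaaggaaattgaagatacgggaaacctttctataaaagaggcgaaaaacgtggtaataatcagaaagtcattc
nlp-33: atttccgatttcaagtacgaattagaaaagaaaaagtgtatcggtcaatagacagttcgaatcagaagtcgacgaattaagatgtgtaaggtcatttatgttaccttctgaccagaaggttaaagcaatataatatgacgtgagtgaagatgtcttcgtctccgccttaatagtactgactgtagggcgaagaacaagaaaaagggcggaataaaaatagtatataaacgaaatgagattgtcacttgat
The nlp-29 window holds 3 GATC and the nlp-33 window 0. Of all 19406 windows of this length, 38.3% hold at least 1 GATC. The letters TGATAA, a form of the site read by GATA factors, were searched on both strands and are in neither window, while 26.7% of all windows hold them. The letters GAT are common to GATC and TGATAA. These matches describe the letters only.

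Attachment and fate genes were mostly level. Of 18 hemidesmosome and intermediate filament genes, 9 (50%) were called in each genotype and 8 in both. Of all named genes, 9.81% were called in wild type and 7.53% in the mutant. The intermediate filament gene mua-6 had 0.30 and 1.44 over 24 fragments, with a change of 1.14 as deposited and 0.89 after quantile normalization. The long genes vab-10 (247 fragments, 0.26 and 0.44), let-805 (128 fragments, 0.48 and 0.55) and mup-4 (46 fragments, 0.93 and 1.16) differed by under 0.25. Among epidermal fate genes, lin-26 had 0.86 and 2.06, a change of 1.20 that was 0.63 after quantile normalization, and the GATA factor gene elt-3 had 0.54 and 0.92. The nuclear receptor gene nhr-25 had 0.49 and 0.47, and grh-1 had 0.21 and 0.22.

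Genes of protein synthesis differed widely in both directions. Of 81 cytosolic ribosomal protein genes, 42 (51.9%) were called in wild type and 27 (33.3%) in the mutant, against 9.81% and 7.53% of all named genes. Beyond 1 were 7 higher (8.64%) and 6 lower (7.41%), against 1.06% and 0.486% of all named genes. The counts were the same on both scales. In this list 52 genes were called in at least 1 genotype. Among all genes so called, 7.65% were higher and 3.3% lower as deposited, and 4.86% and 5.62% after quantile normalization. Called genes alone are the base of those shares, while 8.64% and 7.41% are over all 81 members. The shares are therefore not like for like. The SD of the change was 0.811 over these 81 genes, and 0.275 over all named genes. The list has a median of 4 fragments, and the bin of 4 to 7 fragments had an SD of 0.306. In the higher direction rpl-43 had 0.021 in wild type and 2.48 in the mutant, rpl-10 had 0.58 and 2.79, and rpl-30 had 0.40 and 2.35. In the lower direction rps-16 had 1.46 and -0.44, rpl-32 had 1.56 and -0.15, rpl-29 had 1.71 and 0.066, and rpl-4 had 1.28 and -0.037. The median change was -0.074 as deposited and -0.144 after quantile normalization.

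Some of these genes share a stretch of chromosome. The genes R11D1.13 and rpl-28 had identical scores (0.00067 and 2.03) over 1 fragment, so they are 1 measurement and not a pair. The genes on either side of rps-16 were also lower, with 0.70 and -0.28 for T01C3.11 and 0.76 and -0.16 for the fibrillarin gene fib-1. By contrast, the gene before rpl-10 (ints-11) had 0.33 and 0.10 and the gene after it had -0.06 and -0.08 (F10B5.2).

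Other translation genes also differed in both directions. Of 67 mitochondrial ribosomal protein genes, 2 (2.99%) were higher and 2 (2.99%) lower on both scales, and the SD of the change was 0.407. For all named genes these shares were 0.676% and 0.471%, and the SD was 0.275. The gene mrpl-49 had -0.00035 and 1.47 and mrps-34 had -0.33 and 0.81, while mrps-33 had 1.14 and -0.26 and mrps-6 had 0.56 and -0.56. The span of mrpl-49 (chromosome V, 12728631 to 12729417) lies near that of rpl-28 (12727593 to 12728112). Whether both scores draw on the same fragment was not tested. Of 72 translation factor and tRNA synthetase genes, 2.78% were beyond 1 in each direction as deposited, with an SD of 0.429. For all named genes, 1.06% were higher and 0.486% lower as deposited. Within the list of 72, on both scales ears-2 was higher (0.22 and 1.98), and eif-1.A (0.84 and -0.27) and the helicase gene inf-1 (0.82 and -0.19) were lower. The annotated span of ears-2 overlaps that of ssna-1 (-0.18 and 2.28), so both scores can hold the same GATC fragment.

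Calls of proteasome and chaperone genes are read against those of all named genes, 9.81% in wild type and 7.53% in the mutant. Of 33 proteasome genes, 8 were called in wild type and 2 in the mutant, with none beyond 1. The core subunit genes pas-1 (0.71 and -0.22), pbs-5 (0.42 and -0.38) and pbs-7 (0.48 and -0.18) and the regulatory genes rpn-8 (0.46 and -0.08) and rpt-2 (0.28 and -0.26) were lower. In the other direction pas-7 had 0.12 and 0.65. The median change over all 33 was -0.075.

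Among 22 heat shock chaperone genes, 9 were called in wild type and 5 in the mutant. The endoplasmic reticulum chaperone gene enpl-1 had 0.73 and -0.33 over 18 fragments, and the small heat shock gene hsp-12.3 had 0.34 and -0.97. The gene hsp-90 (1.23 and 0.51), hsp-43 (0.51 and -0.13) and hsp-110 (0.20 and -0.36) were lower by less than 1. The hsp-70 family gene hsp-1 had 1.00 and 1.22, and hsp-60, the mitochondrial chaperonin, had 0.63 and 0.61. Of 25 autophagy genes, 9 (36%) were called in wild type and 4 (16%) in the mutant, against 9.81% and 7.53% of all named genes. Over the list, 16 of 25 genes scored higher in the mutant, with a median change of 0.020 (0.035 after quantile normalization), and atg-4.2 had -0.28 and 0.33. The lower ones included lgg-2 (0.58 and -0.51) and lgg-1 (0.42 and -0.13), both homologs of yeast Atg8, and atg-7 (0.69 and -0.21).

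**Figure D4:**
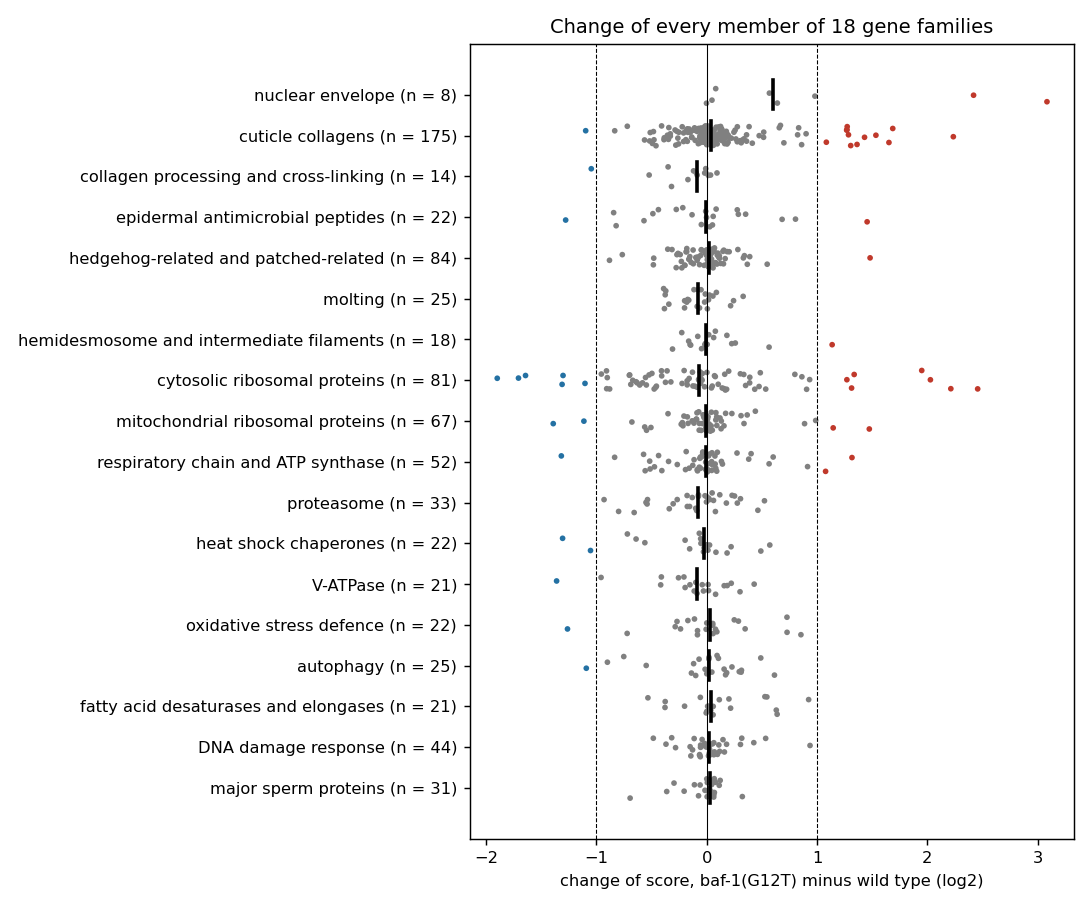
Change of score (baf-1(G12T) minus wild type, log2) of every member of 18 gene families. Each point is a gene, the vertical bars are medians, and points beyond 1 are red (higher) or blue (lower). The medians lie between -0.1 and 0.1 except in the nuclear envelope list (0.60), and the cytosolic ribosomal protein genes spread from -1.90 to 2.46.

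Mitochondrial and energy genes held single large differences. The complex I gene nduf-7 had 0.62 in wild type and -0.70 in the mutant over 17 fragments. Both flavoprotein genes of complex II scored lower, with 0.36 and -0.22 for sdha-2 and 0.20 and -0.31 for sdha-1. Higher genes were the complex III Rieske gene isp-1 (-0.23 and 0.68), atp-4 (0.44 and 1.76) and cox-7C (-0.12 and 0.96). After quantile normalization atp-4 and cox-7C changed by 0.98 and 0.95 and were no longer beyond 1. The V-ATPase gene vha-9 had 1.32 and -0.042, and vha-1 had 1.11 and 0.15. The pyruvate carrier gene mpc-1 had 0.35 and 2.16.

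Stress defence genes did not go 1 way. Of 22 oxidative stress genes, 8 (36.4%) were called in wild type and 6 (27.3%) in the mutant. The shares of all named genes were 9.81% and 7.53%. The glutathione transferase gene gst-4, a common reporter of oxidative stress, had 1.02 and -0.24, and the mitochondrial peroxiredoxin gene prdx-3 had 0.50 and -0.22. The genes sod-1 (0.74 and 1.46), ctl-2 (0.13 and 0.85) and prdx-2 (0.62 and 1.48) were higher by less than 1. The transcription factor genes skn-1 and daf-16 had 0.53 and 0.42, and 0.23 and 0.52. Of 44 DNA damage response genes, none was beyond 1, and the one nearest was mre-11, with -0.29 and 0.65 over 20 fragments.

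Genes of the osmotic response include the furrow collagens already described. Of 18, 9 (50%) were called in wild type and 3 (16.7%) in the mutant, against 9.81% and 7.53% of all named genes. These counts hold the furrow collagens again, of which 4 were called in wild type and 0 in the mutant. The glycerol-producing enzyme gene gpdh-2 had 0.45 and -0.08, and gpdh-1 had -0.35 and -0.27. The secreted ligand gene osm-11, which restrains that response, had 1.74 in wild type and 3.34 in the mutant, among the 3 highest mutant scores. Its change of 1.61 was 0.54 after quantile normalization.

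Of 21 fatty acid desaturase and elongase genes and their regulators, 5 (23.8%) were called in wild type and 6 (28.6%) in the mutant. The shares of all named genes were 9.81% and 7.53%. In the list, 15 members scored higher in the mutant. None was beyond 1. Fatty acid synthase fasn-1 had 1.20 and 1.84 over 60 fragments, the desaturase gene fat-7 had -0.07 and 0.86, and its regulator nhr-49 had 0.25 and 0.88. The desaturase gene fat-1 had 0.25 and -0.29. Among metal handling genes 1 was beyond 1. The chaperone gene cuc-1 (chromosome III, 7860466 to 7860985) had -0.32 in wild type and 2.71 in the mutant, a change of 3.03 (2.54 after quantile normalization) over 2 fragments. Its neighbours tomm-7 (0.044 and -0.0064) and snr-5 (-0.21 and -0.085) did not share it, and the copper pump gene cua-1 had -0.04 and -0.05.

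The 250 bases before cuc-1 hold 1 GATC, in capitals (chromosome III, 7860986 to 7861235, minus strand). It is shown because the window supplies the next site beyond the gene. The window before the collagen gene col-143 (chromosome V, 6835385 to 6835634, plus strand) and that before cdo-1 (chromosome X, 863579 to 863828, minus strand) hold none.
cuc-1: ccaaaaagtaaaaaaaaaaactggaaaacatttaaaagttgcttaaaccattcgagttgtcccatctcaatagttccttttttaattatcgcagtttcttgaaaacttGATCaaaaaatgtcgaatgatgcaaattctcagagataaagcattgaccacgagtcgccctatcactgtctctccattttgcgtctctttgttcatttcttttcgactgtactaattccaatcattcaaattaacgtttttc
col-143: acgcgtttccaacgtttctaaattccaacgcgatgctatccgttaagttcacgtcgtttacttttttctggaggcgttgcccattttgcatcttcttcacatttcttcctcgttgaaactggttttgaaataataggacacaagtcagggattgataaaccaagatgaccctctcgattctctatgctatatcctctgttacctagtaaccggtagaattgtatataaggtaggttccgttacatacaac
cdo-1: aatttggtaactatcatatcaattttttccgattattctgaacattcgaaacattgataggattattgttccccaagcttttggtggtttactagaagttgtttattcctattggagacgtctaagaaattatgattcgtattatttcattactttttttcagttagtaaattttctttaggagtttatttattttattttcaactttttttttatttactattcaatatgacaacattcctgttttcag
The col-143 window holds TGATAA once, and those of cuc-1 and cdo-1 do not.

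Among all genes with at least 4 fragments, 98 were more than 1 higher on both scales and called in baf-1(G12T), and 88 of them were not called in wild type. The 12 largest, by change as deposited, began with lmn-1. Next came the exon junction gene mag-1, with -0.51 and 2.42, and the C-type lectin gene clec-1, with 0.85 and 3.63. Then followed C29E4.9 (-0.084 and 2.60), K01D12.10 (-0.24 and 2.33), ssna-1 (-0.18 and 2.28), the bestrophin gene best-13 (-0.11 and 2.34), F54H5.5 (-0.46 and 1.97), emr-1, phf-30 (0.16 and 2.56), the glutathione transferase gene gst-12 (-0.00032 and 2.22) and rpl-10. Of these 12, only clec-1 and rpl-10 had been called in wild type. The genes ssna-1 and ears-2 on chromosome IV were both higher. Their annotated spans (388084 to 388716 and 388686 to 390468) overlap, so both scores can hold the same GATC fragment and are not separate observations.

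In the lower direction 68 genes with at least 4 fragments were beyond 1 on both scales and called in wild type, and 65 of them were not called in the mutant. As deposited, the largest drops after tin-13 were those of F58F12.1 (1.03 and -0.91), C45B2.8 (1.33 and -0.48), T28F4.5 (1.30 and -0.49) and rpl-32. They were followed by cdo-1, the gene of cysteine dioxygenase (2.05 and 0.37), ZK1098.9 (0.88 and -0.77), ZK970.7 (1.48 and -0.11), B0041.8 (0.79 and -0.80), qdpr-1 (1.47 and -0.080), C06E4.5 (1.28 and -0.24) and C25E10.16 (1.25 and -0.25). The gene cdo-1 (chromosome X, 862267 to 863578, 8 fragments) had the highest wild-type score among these 12 and stayed called in the mutant. The genes B0041.8 and rpl-4 are neighbours on chromosome I.

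Long genes give the score over many sites. Of 3561 genes with at least 16 fragments, 9 were higher and 2 lower as deposited, and 5 were beyond 1 on both scales. These 5 were lmn-1, the transporter-like mfsd-6 (-0.069 and 1.13 over 20 fragments), the polo kinase gene plk-1 (-0.43 and 0.61 over 18 fragments), nduf-7 and enpl-1.

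Genes called in both genotypes and beyond 1 on both scales numbered 13 higher and 3 lower. The lower genes were cdo-1, pals-1 (1.61 and 0.49) and Y48G8AR.8 (1.54 and 0.46). Among the higher genes, besides clec-1, rpl-10, grl-10 and mpc-1, were B0361.14 (0.80 and 3.11) and F55C5.17 (1.02 and 3.03), each with 1 fragment, and the chemoreceptor gene str-56 (0.36 and 2.36). Further members were Y37D8A.4 (0.51 and 2.41), the transthyretin-like ttr-33 (0.42 and 2.16), adk-1 (0.40 and 1.89), T04C12.11 (0.58 and 2.03), rps-15 (0.38 and 1.72) and mex-6 (0.24 and 1.52). Before F55C5.17 lies frm-7 (0.69 and 2.15) and before B0361.14 lies B0361.9 (1.03 and 1.54), both also higher. The genes after them, srg-45 (0.0068 and -0.0081) and acbp-4 (0.15 and 0.094), were not. Sharing of fragments was not tested.

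The highest wild-type scores were level or higher in the mutant as deposited. F14E5.8 had 2.87 and 2.96, F21C3.7 had 2.45 and 3.25, and nspe-1 had 2.37 and 2.45. After quantile normalization their changes were -0.85, -0.32 and -0.85, so that their direction turned with the scale.

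**Figure D5:**
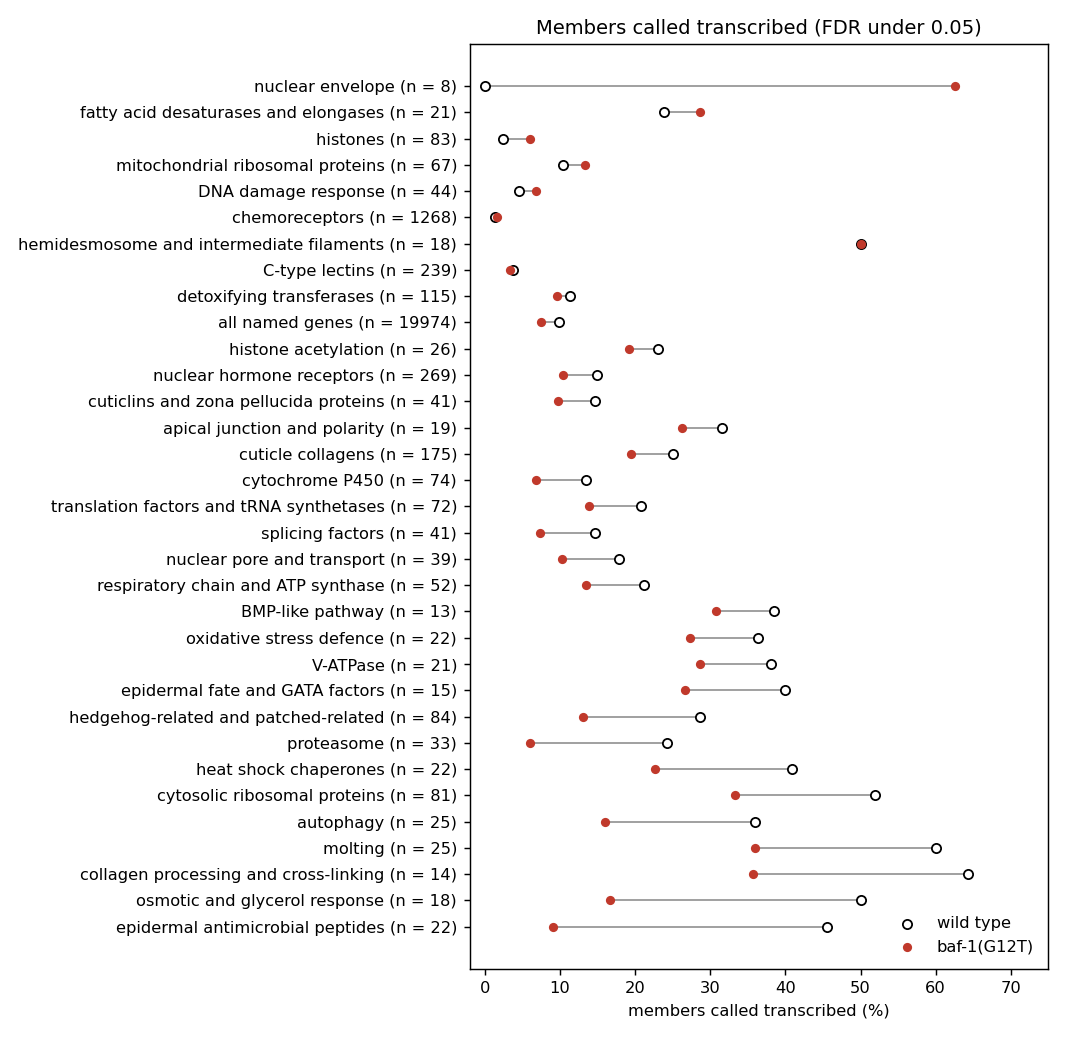
Share of members (%) called transcribed at an FDR under 0.05 in wild type (open circles) and baf-1(G12T) (red), for lists with at least 8 members and at least 5 called in either genotype, ordered by the difference. All named genes went from 9.81% to 7.53%. The epidermal antimicrobial peptides went from 45.5% to 9.09%, and the nuclear envelope list from 0% to 62.5%.

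Large families, most of them not specific to the hypodermis, were read against the 1.06% higher and 0.486% lower over all named genes. Their calls were read against 9.81% in wild type and 7.53% in the mutant over all named genes. Of 1268 chemoreceptor genes, 18 were called in wild type and 21 in the mutant, 8 (0.631%) were more than 1 higher and 0 were more than 1 lower. Of 31 major sperm protein genes none was beyond 1. Of 269 nuclear hormone receptor genes, 40 and 28 were called and 2 (0.743%) were more than 1 higher as deposited, nhr-48 (0.15 and 1.15) and nhr-286 (0.61 and 1.77). Of 239 C-type lectin genes, 1.26% were more than 1 higher and 0.418% more than 1 lower as deposited. On both scales clec-1 and clec-63 (-0.21 and 1.44) were higher and clec-126 (1.58 and 0.22) was lower. Among the detoxifying transferases, 2.61% were more than 1 higher and 1.74% more than 1 lower as deposited. Besides gst-12, ugt-39 (0.15 and 1.50) and ugt-17 (-0.59 and 0.44) were higher, and the neuropeptide gene flp-28 (-0.034 and 1.37) was the one higher member of its family.

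Over the genome the differences were not tied to 1 chromosome. The median change was between 0.0063 on the X chromosome and 0.028 on chromosome II. Between 0.917% (chromosome IV) and 1.18% (chromosome III) of genes were more than 1 higher, and between 0.387% (chromosome II) and 0.667% (chromosome III) were more than 1 lower. Each autosome was divided into 3 equal lengths. In the central ones, 1.58% of 6384 genes were higher and 0.768% were lower. In the outer ones these shares were 0.763% and 0.309% of 10353 genes. Calls were likewise more frequent in the central than in the outer lengths, 9.27% against 6.09% in the mutant. Of 208 placed genes more than 1 higher, 20 (9.62%) had an adjacent gene that was also higher, while 2.13% of all genes had such a neighbour. Of 95 lower genes 2 (2.11%) had a lower neighbour, against 0.979% of all genes. Adjacent genes can share a GATC fragment, and the part of such sharing in these counts was not tested.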

How the data were processed

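DamID-seq of L4 larvae was used for 8 hypodermis samples. DNA (200 ng) was amplified over 14 PCR cycles. Per the study's methods, reads that start at GATC sites were mapped to ce11, the log2 ratio of Dam::RPB-6 to GFP::Dam was made with damidseq_pipeline, and genes were scored with polii.gene.call. How the replicates were combined is not given in the sources used. The deposited values are a log2 score per gene, the authors' FDR (a q-value) and a count of GATC fragments per gene. These tables hold no read depth, so no interval is given for a score. The study's own table of read numbers lists an uneven pair of mutant Dam::RPB-6 libraries, and the part of this in the wider mutant scores was not tested.

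Each table has 19985 rows. The 11 unnamed ones were left out and the rest were joined by name. Positions came from Ensembl release 115 (19406 genes) or RefSeq (540), and 28 genes were not placed. Both are WBcel235. Changes, counts and quantile normalization were computed in Python 3.11.15 with numpy 2.4.6 and pandas 2.3.3, and the steps were tested on simulated data. Named genes were the 12 largest in each direction with at least 4 fragments, those with at least 16 fragments, those called in both genotypes, up to 4 per family and direction, the 3 highest scores, fixed genes and markers, beyond 1 on both scales where a change decided. Other genes named by family were chosen after their values were seen. Members and the 45 gene lists were chosen with earlier results of these data known.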

Additional observations from a re-analysis of the deposited data

Results flagged for a closer look

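In both tissues 3 called genes were beyond 1 on both scales in opposite directions in hypodermis and intestine, the other tissue of the series, and 2 genes were beyond 1 in the same direction. The difference between the tissues was not tested. The ribosomal protein gene rpl-29 had a change of -1.64 in hypodermis and 1.02 in intestine (0.10 in wild type and 1.12 in the mutant there), a difference of 2.66 over 2 fragments. ZK1127.5 had -1.08 and 1.18, a difference of 2.26 over 5 fragments. K11D12.14 had 2.54 and -1.11, a difference of -3.65 (intestine minus hypodermis) over 1 fragment.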

How the results depend on the processing

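The counts over genes with a call depended on the scale. Against 211 higher and 91 lower genes as deposited, quantile normalization gave 134 and 155. Other settings that moved a count by over 1.5 times were a difference of 0.58 (532 and 337), a difference of 1.5 (72 and 21), genes called in both genotypes (47 and 3), at least 8 fragments (74 and 21) and, for lower genes, a mean score of at least 0.2 (57). Median centring gave 202 and 94 and scaling by the SD 159 and 134. At an FDR under 0.01 the calls were 1287 in wild type, 953 in the mutant and 441 in both. Quantile normalization moved the share of higher genes to 0.923% with 2 to 3, 0.852% with 4 to 7, 0.651% with 8 to 15 and 0.114% with 16 to 31 fragments, and that of lower genes to 1.23% with 4 to 7 and 0.569% with 8 to 15. The lists with a member beyond 1 numbered 27, and 24 after quantile normalization. Of 145 genes under the naming rule, 4 crossed 1 under quantile normalization, 4 under SD scaling and none under median centring. No named gene beyond 1 as deposited changed sign. Among named genes with smaller changes, of 0.80 or less in size, 10 changed sign under quantile normalization, 7 under SD scaling and 5 under median centring. The cause was not tested, except that fewer genes pass a stricter rule.

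No paired analysis was possible because the tables hold 1 score per gene and genotype, and leaving out a replicate was not run for the same reason. No replicate error is known.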
